A study of Mus musculus with 4 samples.

Results

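Cadherins and protocadherins were taken as the protein-coding rows of the count table whose symbol begins with Cdh and a number or with Pcdh, giving 59 of 37620 gene rows. They comprise 5 type I classical cadherins, 13 type II classical cadherins, 5 other numbered cadherins, 12 single protocadherins, and the clustered protocadherins, with 2 rows for the alpha cluster, 21 for the beta cluster and 1 for the gamma cluster. RNA-seq compared WT_CTCF with MUT_CTCF mESCs, asking how gene expression differs when CTCF cannot carry O-GlcNAc at residue T668. In both mouse embryonic stem cell lines the endogenous CTCF, tagged for degradation, was removed with auxin, and a vector supplied either wild-type CTCF (WT_CTCF) or CTCF mutated at T668 (MUT_CTCF). Each line was grown from a picked clone selected with hygromycin and expressing exogenous CTCF at about the endogenous level, so the mutation and the clone cannot be told apart. There were 2 libraries per line.

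Cadherins are transmembrane proteins whose extracellular repeats bind calcium and adhere to cadherins on neighbouring cells. The classical cadherins carry cytoplasmic tails that bind beta-catenin and p120-catenin and so join the junction to actin, and Cdh1 (E-cadherin) holds the compact colonies of mouse embryonic stem cells together. The clustered protocadherins lie in tandem arrays, from which neurons express different isoforms through promoters bound by CTCF and cohesin. The arrays are alternative first exons in the alpha and gamma clusters and separate genes in the beta cluster.

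The depth was nearly equal, with 40524694 to 40977464 counts per library, and a count of 0 allows up to 3 counts in a library, or 0.0740 CPM (counts scaled by library size), a limit that covers counting error only. Replicates differed by more than sampling noise, with a chi-square per degree of freedom of 3.65 between the WT_CTCF libraries and 4.33 between the MUT_CTCF libraries. Log2 fold changes (log2FC) are MUT_CTCF over WT_CTCF and come from edgeR's quasi-likelihood test of 16264 genes, with Benjamini-Hochberg adjustment over all of them. Their standard error (SE) is not given by that test. It was calculated as the absolute log2FC over the square root of the test's F statistic. The median log2FC over all tested genes was 0.0034. An exact permutation test of 2 libraries against 2 gives no two-sided p below 0.333, so the tests rest on the spread that edgeR shares across genes. All 9 pluripotency markers were tested, and their summed normalized counts lay between 262547 and 264744 in WT_CTCF and between 261141 and 261419 in MUT_CTCF. Markers of other cell types were low beside these. Of 8 fibroblast markers, 4 were tested and Lum was at 0, and their sum was 891 to 910 in WT_CTCF and 966 to 1032 in MUT_CTCF, while that of 7 trophoblast markers was 2088 to 2229 and 1766 to 1843. Of 8 neural markers, 3 were tested and Dcx was at 0, with sums of 16328 to 16356 and 14726 to 15038, of which Tubb3 gave 12061 to 13741 counts. The sum of 7 endoderm markers was 438 to 516 and 520 to 692, and that of 7 mesoderm markers overlapped, at 939 to 1028 and 972 to 995. Single markers with an adjusted p under 0.05 by edgeR were Cdx2 (log2FC -0.97), Krt8 (-0.30), Tubb3 (-0.19), Dppa5a (-0.099) and Sox2 (0.095). The part of these marker differences in the results below was not tested.

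Most members had few or no reads. 18 of the 59 passed the filter on low counts, 14 had 0 counts in all 4 libraries, and 27 had some reads but too few to be tested, none above 16 counts in a library. Cdh1 alone took between 84.3% and 84.8% of the counts of all members, the gamma cluster row (Pcdhgc5) between 9.03% and 9.78%, and Cdh3 between 3.32% and 3.83%. The other 56 members together gave 1354 to 1433 counts per library, and the whole family gave 0.135% to 0.141% of all counts.

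**Figure D1:**
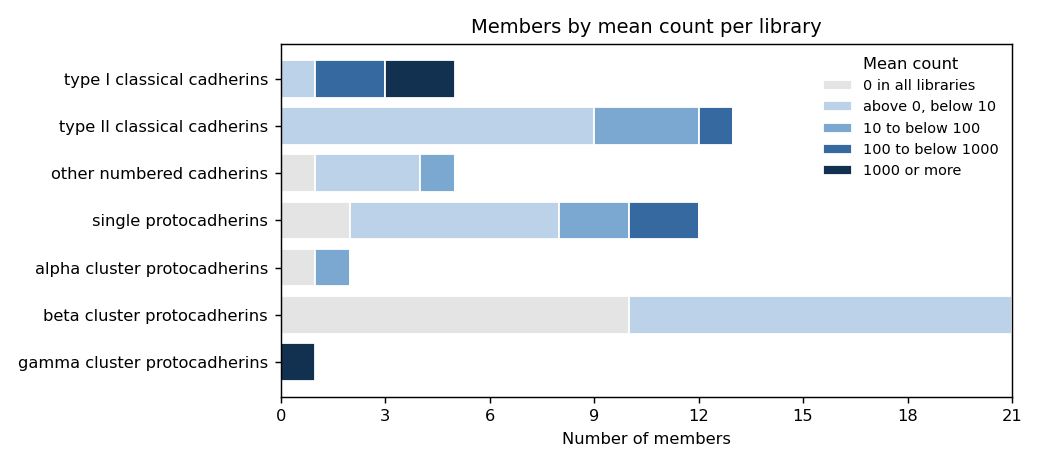
Number of members of each subgroup (x axis) by mean count per library over the 4 libraries (shading). Only Cdh1, Cdh3 and the gamma cluster row reach a mean of 1000 counts, and none of the 21 beta cluster genes reaches 10.

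Levels between genes were compared as CPM per kilobase of exon shared with no other gene. On this scale Cdh1 stood at 260.9 ± 3.17 in WT_CTCF and 250.1 ± 0.66 in MUT_CTCF (SD, n = 2 each). Cdh3 (P-cadherin) followed at 13.4 ± 0.284 and 11.5 ± 0.27 (SD, n = 2 each). The gamma cluster row came next, at a level of 4.81 ± 0.174 in WT_CTCF, then Cdh24 at 2.90 ± 0.236 and Cdh4 (R-cadherin) at 0.995 ± 0.131 (SD, n = 2 each). Cdh22 at 0.471, Pcdh19 at 0.442, Pcdh1 at 0.343, Cdh2 (N-cadherin) at 0.324 and Cdh11 at 0.254 were next, and the libraries of neighbours in this lower stretch overlapped at several places. The ratio of the level of Cdh1 to that of Cdh2 was 723 to 808 over the 4 libraries. The order depends on the length assigned to rows with several transcripts. By the median length of annotated transcripts the gamma row was at 27.9, above Cdh3 at 13.47, and Cdh4 was at 9.57.

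**Figure D2:**
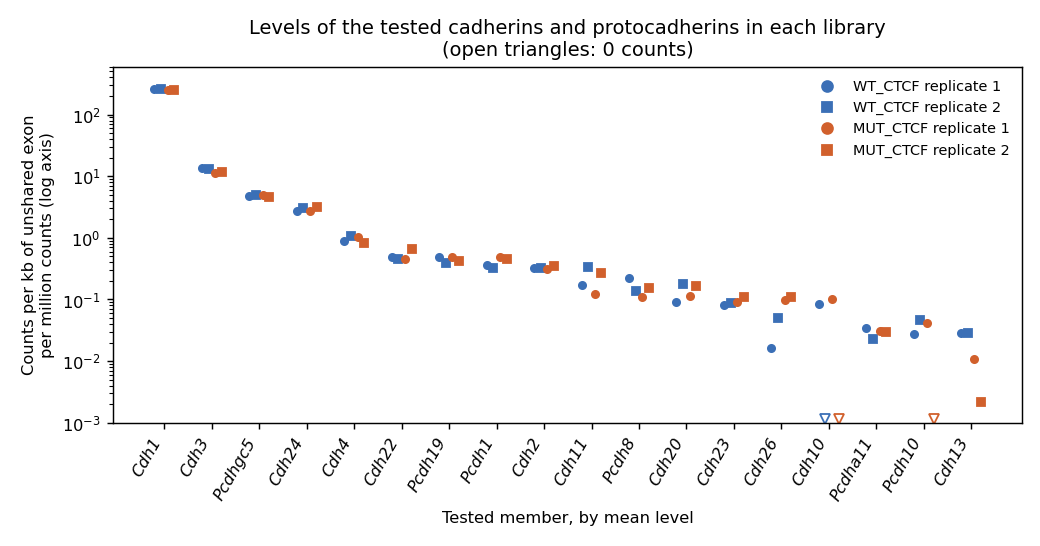
Level of each of the 18 tested members in each library, in CPM per kilobase of unshared exon on a log axis, with circles for replicate 1, squares for replicate 2, blue for WT_CTCF and orange for MUT_CTCF. The level of Cdh1 is 77.6 to 96.3 times that of Cdh24 within a library, and the points of Cdh10 and Pcdh10 at 0 counts are drawn as open triangles on the lower edge.

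Promoter sequences were set beside these levels. RefSeq gave windows upstream of the start site for 22 members on build GRCm38.p6, which do not include Cdh1, Cdh3 or Pcdhgc5, and 3 of them are printed 5′ to 3′ on the gene's strand, the 250 bases before the start, with each CG dinucleotide in capitals. They were chosen to set a transcribed CpG-rich promoter beside a nearly silent CpG-rich one and a CpG-free one. Cdh24, a type II cadherin, is at chr14:54641365-54641614 on the minus strand, Pcdh10, a single protocadherin, at chr3:45378148-45378397 on the plus strand, and Cdh26 at chr2:178430265-178430514 on the plus strand.
Cdh24: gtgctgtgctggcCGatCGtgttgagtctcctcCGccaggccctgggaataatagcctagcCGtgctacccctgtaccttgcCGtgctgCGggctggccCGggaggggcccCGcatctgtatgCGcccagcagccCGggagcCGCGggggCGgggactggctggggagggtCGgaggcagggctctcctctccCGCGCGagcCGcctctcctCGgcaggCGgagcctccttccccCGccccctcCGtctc
Pcdh10: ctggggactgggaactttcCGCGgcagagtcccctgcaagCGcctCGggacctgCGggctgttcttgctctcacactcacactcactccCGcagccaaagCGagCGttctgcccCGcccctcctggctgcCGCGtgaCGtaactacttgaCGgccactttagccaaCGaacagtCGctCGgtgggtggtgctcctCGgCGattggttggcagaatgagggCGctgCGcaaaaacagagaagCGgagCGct
Cdh26: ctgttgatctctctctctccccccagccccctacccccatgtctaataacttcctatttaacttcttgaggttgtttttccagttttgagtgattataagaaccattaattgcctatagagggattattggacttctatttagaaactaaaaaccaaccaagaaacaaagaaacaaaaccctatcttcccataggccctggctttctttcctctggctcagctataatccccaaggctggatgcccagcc
Cdh24 and Pcdh10 each held 22 CG dinucleotides, with an observed over expected ratio of 0.665 and 0.883, and Cdh26 held 0. The level of Cdh24 was 2.90 in WT_CTCF, against 0.0369 for Pcdh10 and 0.0331 for Cdh26. Over all 32851 promoter windows, 34% reached a ratio of 0.6. Of the 22 matched members, 10 had any window that did, 5 of 9 tested members and 5 of 13 members that were not tested. These members had 25 windows, several each for Cdh7 and Pcdh9, so the count by member and the share by window are unlike measures.

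Calls among the 18 tested members were set beside the share of all tested genes called. At an adjusted p under 0.05, 1 of the 18 was lower in MUT_CTCF, Cdh3, where 1.61% of all tested genes were lower. Of the 18, 0 were higher, where 1.56% of all tested genes were. By the paper's criterion (fold change above 2, unadjusted p under 0.05), 1 was lower, Cdh13, against a background of 0.357%, and 0 were higher, against 0.947%. An unadjusted p under 0.05 alone held for 1 member upward, Pcdh1, where the background was 7.61%, and for 3 downward, Cdh3, Cdh1 and Cdh13, where it was 7.65%. DESeq2 called 0 members at an adjusted p under 0.05, and edgeR's exact test called Cdh3 only. Among the members given in full, DESeq2 gave no adjusted p for Pcdh1, Cdh13, Pcdh19 and Cdh2, so it could not call these. The libraries of the lines did not overlap for 3 of 18 tested members above (Pcdh1, Cdh26 and Cdh23) and for 3 below (Cdh1, Cdh3 and Cdh13), against 22.3% of all tested genes in each direction. The median log2 fold change of the 18 was 0.027, and 8 of them were negative, as were 49.2% of all tested genes. Cdh13 passed the filter only through WT_CTCF and Cdh26 only through MUT_CTCF, so these counts and the median are a description.

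**Figure D3:**
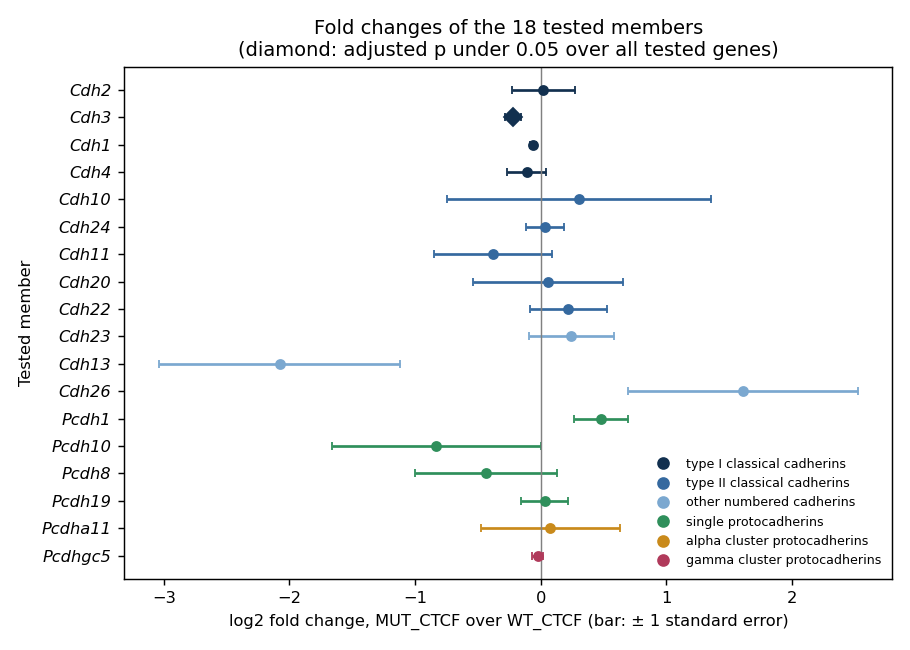
Log2 fold change of MUT_CTCF over WT_CTCF for the 18 tested members, with bars of 1 standard error and a diamond where the adjusted p was under 0.05. Only Cdh3 has a diamond, and the widest bars belong to members with few counts, such as Cdh10, Cdh13 and Cdh26.

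Cdh3 and Cdh1 lie next to each other on chromosome 8 of mm9, Cdh3 at 109034791 to 109080808 and Cdh1 at 109127251 to 109194146, 46.4 kb apart. Cdh3 had 2213 and 2146 counts in WT_CTCF and 1857 and 1894 in MUT_CTCF. The lines did not overlap. The mean normalized count was 2185 ± 46.3 in WT_CTCF and 1873 ± 43.9 in MUT_CTCF (SD, n = 2 each), a log2FC of -0.22 (SE 0.062, edgeR quasi-likelihood, Benjamini-Hochberg adjusted p = 0.0312). The call was lost under DESeq2 (adjusted p = 0.0665), with library-size scaling (0.0535), without a filter (0.241) and with any library left out. The log2 fold change stayed between -0.25 and -0.20. The unadjusted p of Cdh3 was 0.00245 by DESeq2 and 0.00286 by edgeR without a filter. In RNA of a whole culture, fewer cells with a transcript and less of it per cell cannot be told apart.

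Cdh1 had 49021 and 48149 counts in WT_CTCF and 47151 and 46348 in MUT_CTCF, again without overlap. Normalized, this was 48701 ± 592 against 46677 ± 123 (SD, n = 2 each), a log2FC of -0.061 (SE 0.023, edgeR adjusted p = 0.141), which did not pass. The ratio of the level of Cdh1 to that of Cdh3 was 19.35 and 19.6 in WT_CTCF and 22.18 and 21.37 in MUT_CTCF. Of 24 protein-coding genes within 500 kb of this pair, a list added after the data were seen, 22 were tested. At an adjusted p under 0.05 edgeR called 0 (background 1.56% higher and 1.61% lower), as did DESeq2 and the exact test. By an unadjusted p under 0.05 there were 1 higher and 1 lower (background 7.61% and 7.65%). The median of the list was -0.0017.

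The other type I cadherins were Cdh4, which had 264 and 318 counts in WT_CTCF and 303 and 238 in MUT_CTCF, and Cdh2, with 107, 106, 104 and 113 counts in the same order. Both overlapped between the lines. Cdh4 (chromosome 2, 179177136 to 179634078) had a log2FC of -0.11 (SE 0.156, edgeR adjusted p = 0.818). Cdh2, the cadherin of neural and mesenchymal cells, lies on chromosome 18 at 16747386 to 16967755 and had a log2FC of 0.021 (SE 0.251, edgeR adjusted p = 0.980). Cdh15 (M-cadherin) had at most 6 counts.

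Type II cadherins, most of which are known from particular neurons, mesenchyme or endothelium, were low except for Cdh24. Cdh24 (chromosome 14, 55250829 to 55260201) had 272 and 305 counts in WT_CTCF and 275 and 319 in MUT_CTCF, which overlapped, with a log2FC of 0.037 (SE 0.150, edgeR adjusted p = 0.948). It shares 284 exon bases with a gene on the opposite strand, and counting by strand is not stated. Cdh5 (VE-cadherin), the cadherin of endothelium, had 10 and 11 counts in WT_CTCF and 7 and 4 in MUT_CTCF and was not tested. Cdh11, of mesenchyme, had 30 and 57 counts against 21 and 46, and Cdh22 had 74 and 68 against 68 and 98. Cdh10 had 12 and 0 counts in WT_CTCF and 15 and 0 in MUT_CTCF, so its replicates differed more than its lines. In all, 5 of the 13 were tested. At an adjusted p under 0.05, 0 passed edgeR's, DESeq2's or the exact test (edgeR background 1.56% higher and 1.61% lower). At an unadjusted p under 0.05, 0 passed any of these (edgeR background 7.61% and 7.65%).

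Among the other numbered cadherins, Cdh13 (T-cadherin), which is anchored to the membrane by a lipid and has no cytoplasmic tail, had 13 and 13 counts in WT_CTCF and 5 and 1 in MUT_CTCF. The lines did not overlap, at counts close to the filter. On chromosome 8 at 120807633 to 121848821, it had a log2FC of -2.08 (SE 0.96, unadjusted p = 0.0346, edgeR adjusted p = 0.286), and by DESeq2, without the filter, or without WT_CTCF replicate 1 or 2 or MUT_CTCF replicate 2 it no longer met the criterion. The log2 fold change over all alternatives ran from -3.54 to -1.37. Cdh26 had 2 and 6 counts in WT_CTCF and 12 and 13 in MUT_CTCF, a log2FC of 1.61 that missed the criterion by edgeR's quasi-likelihood test and met it by the exact test. Cdh23, a component of the tip link of hair cells, had 56 and 61 counts in WT_CTCF and 63 and 76 in MUT_CTCF. Cdh16 was at 0 in every library, and Cdh17, an intestinal cadherin, had at most 11 counts.

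The single protocadherins were led by Pcdh19 and Pcdh1. Pcdh1 (chromosome 18, 38345569 to 38371707) had 123 and 113 counts in WT_CTCF and 173 and 158 in MUT_CTCF, without overlap. The normalized mean went from 118.3 ± 7.03 to 165.2 ± 9.02 (SD, n = 2 each), a log2FC of 0.48 (SE 0.217, unadjusted p = 0.0308, edgeR adjusted p = 0.271), which does not pass the adjusted threshold. Over the alternatives the log2 fold change was 0.42 to 0.54, and the unadjusted p was 0.0728 by DESeq2. By edgeR it was also above 0.05 without WT_CTCF replicate 2, MUT_CTCF replicate 1 or MUT_CTCF replicate 2. Pcdh19, on the X chromosome at 130117402 to 130223532, had 204 and 164 counts in WT_CTCF and 206 and 172 in MUT_CTCF, with a log2FC of 0.032 (SE 0.189, edgeR adjusted p = 0.967). Pcdh10 had 12 and 20 counts against 18 and 0, and Pcdh8, expressed in paraxial mesoderm, had 36 and 22 against 18 and 25. Both overlapped. Pcdh7 and Pcdh11x were at 0 in every library, and 8 of the 12 single protocadherins were not tested.

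The clustered protocadherins span 912 kb of chromosome 18, from 37089939 to 38001527. In the annotation used here, gamma isoforms are counted in the row named Pcdhgc5 (37833989 to 38001527, 10 transcripts), and the alpha isoforms in the row named Pcdha11 (37089939 to 37347311, 10 transcripts) beside a row for Pcdha3. Individual alpha and gamma isoforms therefore cannot be read from these counts. The gamma cluster had 5217 and 5487 counts in WT_CTCF and 5470 and 5113 in MUT_CTCF, which overlapped. The normalized mean was 5365 ± 194 in WT_CTCF and 5282 ± 202 in MUT_CTCF (SD, n = 2 each), a log2FC of -0.022 (SE 0.043, edgeR adjusted p = 0.877). The gamma row shares 1647 exon bases with Gm16882, a long noncoding RNA on the opposite strand.

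The alpha cluster summed to 31 and 20 counts in WT_CTCF and 28 and 26 in MUT_CTCF, all of them in the Pcdha11 row, since Pcdha3 was at 0. That row shares 2790 exon bases with Gm10545 on the opposite strand. The mean was 25.6 ± 7.78 against 27.0 ± 1.16 normalized counts (SD, n = 2 each), a log2 ratio of 0.077. The beta cluster summed to 41 and 14 counts in WT_CTCF and 40 and 22 in MUT_CTCF over 21 genes, of which 10 were at 0 in all libraries and 0 were tested. Its mean was 27.6 ± 19.1 against 30.9 ± 12.4 normalized counts (SD, n = 2 each), a log2 ratio of 0.16. Sums of all 3 clusters overlapped between the lines. The most counted beta genes were Pcdhb7, with 7 and 0 counts in WT_CTCF and 16 and 2 in MUT_CTCF, and Pcdhb22, with 11, 5, 8 and 1 counts in the same order. Pcdhb14 had 5, 2, 5 and 11 counts.

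**Figure D4:**
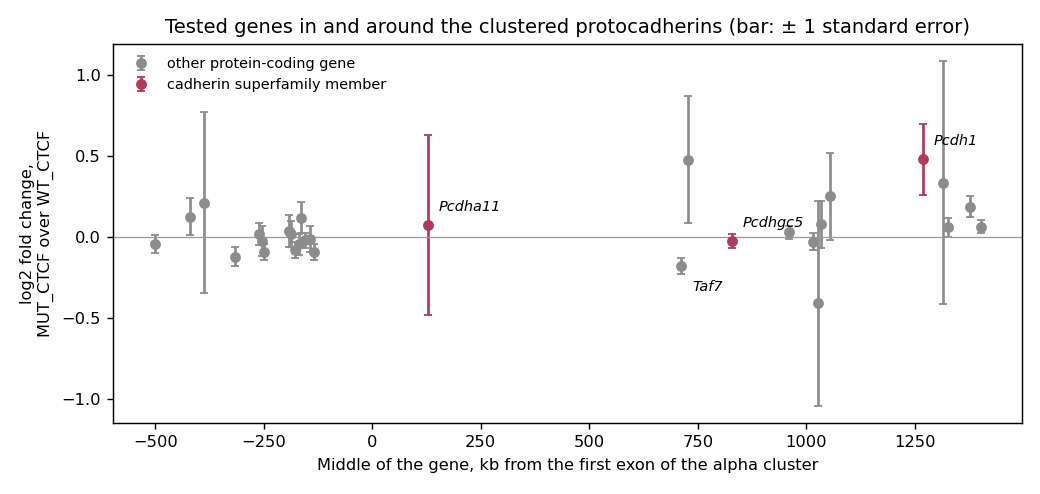
Log2 fold change of MUT_CTCF over WT_CTCF (bar: 1 standard error) of tested protein-coding genes against the distance of the gene's middle, in kb, from the first exon of the alpha cluster. Pcdhgc5 lies at zero within its error, and Taf7, between the beta and gamma clusters, is the tested gene of the surroundings with an adjusted p under 0.05.

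Of 32 protein-coding genes in or within 500 kb of the clusters, 26 were tested. At an adjusted p under 0.05 edgeR called 0 higher and 1 lower (background 1.56% and 1.61%). The 1 lower was Taf7, which encodes a subunit of the general transcription factor TFIID. By an unadjusted p under 0.05 there were 1 higher and 2 lower (background 7.61% and 7.65%), and DESeq2 called 0 at an adjusted p under 0.05. Taf7 had 3653 and 3645 counts in WT_CTCF and 3336 and 3147 in MUT_CTCF, a log2FC of -0.18 (SE 0.050, edgeR adjusted p = 0.0325). The call was kept in 4 of 11 alternatives, and lost under DESeq2 (adjusted p = 0.0617), library-size scaling (0.0611), no filter (0.249) and with any library left out (0.173 to 0.492). The median of the list was 0.020.

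Genes that work with the members were read from 5 lists of 104 genes, 90 of them tested. At an adjusted p under 0.05 edgeR called 7 higher and 2 lower in all, where 1.56% and 1.61% of all tested genes were called, and with any library left out it called 0 to 1 higher and 0 to 2 lower. Of the 21 catenins and junction linkers, 20 were tested, with 1 higher and 1 lower at an adjusted p under 0.05 and the list median at -0.0081, and DESeq2 called 0 higher and 1 lower. Jup (plakoglobin), a catenin of desmosomes and of part of the adherens junctions, had 9284 and 9823 counts in WT_CTCF and 8288 and 8630 in MUT_CTCF. It fell by 0.18 (log2FC, SE 0.036, edgeR adjusted p = 0.000966). Lima1, an actin-binding protein that links alpha-catenin to the cytoskeleton, had 6624 and 6708 counts against 7689 and 7100 and rose, with a log2FC of 0.14 (SE 0.039, edgeR adjusted p = 0.0236). The call of Lima1 was lost under DESeq2 (adjusted p = 0.0523), no filter (0.311) and with any library left out (0.119 to 0.508), and that of Jup was lost without a filter (0.219) and without WT_CTCF replicate 2 (0.127), MUT_CTCF replicate 1 (0.486) or MUT_CTCF replicate 2 (0.411). Ctnnb1 (beta-catenin) had 39457 and 38691 counts in WT_CTCF and 38952 and 39085 in MUT_CTCF, with a log2FC of -0.0076 (SE 0.024, edgeR adjusted p = 0.931).

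**Figure D5:**
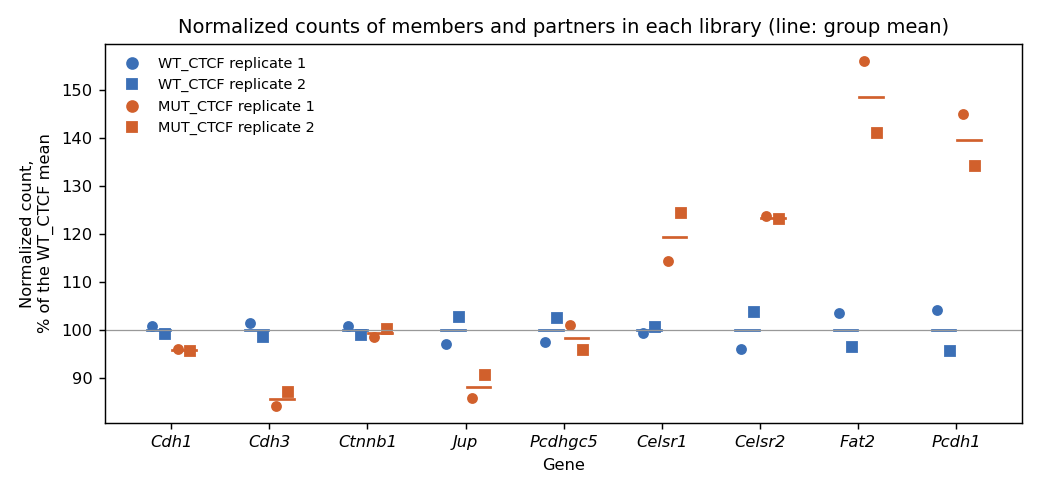
Normalized count of members and partner genes in each library, as a percent of the WT_CTCF mean, with a line at each group's mean. Fat2 and Pcdh1 in MUT_CTCF lie at 134 to 156 and Cdh3 at 84.3 to 87.1, while Ctnnb1 and Pcdhgc5 have libraries of both lines around 100.

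Cadherin superfamily genes outside the naming rule numbered 26, of which 16 were tested, 3 were higher and 0 were lower at an adjusted p under 0.05 (background 1.56% and 1.61%), and the list median was 0.028. By an unadjusted p under 0.05, 4 were higher and 1 was lower (background 7.61% and 7.65%), and DESeq2 called Celsr1 alone and gave no adjusted p for Fat2. Celsr1, a seven-pass cadherin of planar cell polarity, had 1866 and 1888 counts in WT_CTCF and 2171 and 2329 in MUT_CTCF. Its log2FC was 0.26 (SE 0.063, edgeR adjusted p = 0.0103). Celsr2, of the same family, had 737 and 795 counts against 958 and 941, a log2FC of 0.30 (SE 0.091, edgeR adjusted p = 0.0483). Fat2, a giant atypical cadherin, had 201 and 187 counts against 306 and 273, a log2FC of 0.57 (SE 0.164, edgeR adjusted p = 0.0373). The lines did not overlap for any of the 3, as for 22.3% of all tested genes with MUT_CTCF above. Without a filter, or with any library left out, all 3 calls were lost (adjusted p from 0.0621 to 0.492).

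Regulators of Cdh1 and Cdh2, mostly transcription factors such as the Snai and Grhl families beside the splicing regulators Esrp1 and Esrp2, numbered 15, of which 12 were tested. None passed an adjusted p under 0.05 in edgeR's quasi-likelihood test, its exact test or DESeq2 (edgeR background 1.56% higher and 1.61% lower). The list median was 0.115, with 8 log2 fold changes positive and 4 negative. With a library left out it ran from -0.0065 to 0.23, and the list as a set was not tested. At an unadjusted p under 0.05, 1 was higher and 0 were lower (background 7.61% and 7.65%). The 1 higher was Grhl2, which had 441 and 470 counts in WT_CTCF and 552 and 550 in MUT_CTCF (log2FC 0.27, edgeR adjusted p = 0.244). Snai1, a repressor of Cdh1, had 355 and 367 counts in WT_CTCF and 316 and 353 in MUT_CTCF.

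Regulators of clustered protocadherin promoters, which include CTCF, cohesin and DNA and histone methylation enzymes, numbered 23, and all 23 were tested. At an adjusted p under 0.05, edgeR called 1 higher and 1 lower (background 1.56% and 1.61%). DESeq2 and the exact test each called 0 higher and 1 lower. Dnmt3l, a cofactor of the de novo DNA methyltransferases, had 3482 and 3544 counts in WT_CTCF and 2782 and 2733 in MUT_CTCF. It fell by 0.36 (log2FC, SE 0.051, edgeR adjusted p = 2.89e-06), and it passed in 9 of 11 alternatives, failing without MUT_CTCF replicate 1 (adjusted p = 0.319) and without MUT_CTCF replicate 2 (0.371). Ehmt2 (G9a), a histone H3 lysine 9 methyltransferase, had 10277 and 10434 counts against 10935 and 11698 and rose, with a log2FC of 0.12 (SE 0.035, edgeR adjusted p = 0.0326). The call of Ehmt2 was lost under DESeq2 (adjusted p = 0.0873), the exact test (0.0552), no filter (0.402) and with any library left out (0.127 to 0.559). Ctcf itself, whose count does not part endogenous from exogenous transcripts, had 18273 and 18625 counts in WT_CTCF and 18954 and 19233 in MUT_CTCF (log2FC 0.044, SE 0.028, edgeR adjusted p = 0.499).

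Of 19 proteases and cytoplasmic effectors, all tested, edgeR called 2 higher and 0 lower at an adjusted p under 0.05 (background 1.56% and 1.61%). At an unadjusted p under 0.05, 2 were higher and 1 was lower (background 7.61% and 7.65%). DESeq2 called 1 higher and 0 lower at an adjusted p under 0.05. Both genes that edgeR called higher, Cyfip2 and Wasf3, encode subunits of the WAVE complex, which drives branched actin. The other WAVE genes of the list were not called, with a log2FC of -0.103 for Nckap1, -0.030 for Abi2, -0.016 for Abi1, 0.039 for Cyfip1, 0.056 for Wasf2 and 0.083 for Wasf1. Cyfip2 had 737 and 707 counts in WT_CTCF and 1038 and 926 in MUT_CTCF, with a log2FC of 0.44 (SE 0.092, edgeR adjusted p = 0.00207). Wasf3 had 869 and 821 counts against 1095 and 985, with a log2FC of 0.29 (SE 0.088, edgeR adjusted p = 0.0485). The call of Wasf3 was lost under DESeq2 (adjusted p = 0.129), no filter (0.321) and with any library left out (0.127 to 0.518), and that of Cyfip2 without a filter (0.181) and without MUT_CTCF replicate 1 (0.484) or MUT_CTCF replicate 2 (0.398).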

How the data were processed

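RNA was sequenced from mESCs of 2 lines, WT_CTCF and MUT_CTCF, with 2 libraries each, and groups were taken from the labels. The authors trimmed reads with Trim Galore 0.4.4, mapped them with STAR to mm9, and then deposited raw counts of reads per gene from HTSeq 0.9.1, without normalization. The annotation release and the strand setting of the counting are not given in the sources used here. The authors' table of their edgeR comparison (log fold changes, p-values and false discovery rates) was not used. Gene names, exons and places came from GENCODE M1 on the same build, which named 37205 of the 37620 gene identifiers, and 2 pseudogenes with member names were left out. Promoter windows came from RefSeq on GRCm38.p6, and no coordinates were moved between builds.

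Genes were filtered by filterByExpr (minimum count 10), libraries were scaled by TMM and MUT_CTCF was tested against WT_CTCF by the quasi-likelihood functions glmQLFit and glmQLFTest of edgeR 4.0.16 under R 4.3.3, with Benjamini-Hochberg adjustment over 16264 genes. Normalized counts are divided by the relative TMM-scaled library size, and each mean ± SD is over 2 libraries. The p-values rest on the spread between these libraries, which edgeR shares across genes, and do not cover spread between clones. The fit was tested on simulated data. Cluster sums and levels have no test.

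Members called by either criterion, with an unadjusted p under 0.05, or averaging 100 or more normalized counts in either line were given in full, and from each list the genes with an adjusted p under 0.05 (at most 4), plus Ctcf and Ctnnb1. Cdh26, Cdh23, Grhl2, Snai1, Esrp1, Esrp2, the WAVE genes that were not called and the members below that level are named as examples chosen after their values were seen. The members and lists were chosen with earlier results of these data known. Alternatives were DESeq2 1.42.0, the exact test, other scalings and filters, a fold limit of 1.5, a block for the replicate number, and leaving out each library. Levels by transcript length, the list around Cdh3 and Cdh1, and some fits of named genes and lists were chosen after seeing the data.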

Additional observations from a re-analysis of the deposited data

How the results depend on the processing

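With 2 libraries per line, calls moved with the processing, both near the threshold and farther from it. Without a filter, the edgeR adjusted p of Jup went from 0.000966 to 0.219 and that of Cyfip2 from 0.00207 to 0.181. Dnmt3l (2.89e-06) was still called without a filter, at 0.0303. The cause was not tested. For members lower at an adjusted p under 0.05 (1, Cdh3), DESeq2, library-size scaling and no filter each gave 0, and leaving out 1 library gave 0 to 0. For members lower at the paper's criterion (1, Cdh13), DESeq2, no filter and at least 10 reads in every library each gave 0, and leaving out 1 library gave 0 to 2, with Cdh13 and Pcdh10 called without MUT_CTCF replicate 1. For members higher at that criterion (0), the exact test gave 1, Cdh26, and leaving out 1 library gave 0 to 3, with Cdh10, Cdh17 and Pcdhb7 called without WT_CTCF replicate 1. Over the 5 lists, 7 genes were higher and 2 lower at an adjusted p under 0.05. DESeq2 gave 2 higher, no filter gave 0 higher and 1 lower, and leaving out 1 library gave 0 to 1 higher and 0 to 2 lower. Where a library was left out, the lone library was assumed to vary like the other line. In WT_CTCF replicate 2, the lone WT_CTCF library of the fit without replicate 1, Cdh10, Cdh17 and Pcdhb7 each had 0 counts. They could pass its filter only through MUT_CTCF, and Cdh17 and Pcdhb7 were not tested with all libraries kept. Likewise Pcdh10 had 0 counts and Cdh13 had 1 in MUT_CTCF replicate 2, the lone MUT_CTCF library without replicate 1. Shares of all genes called in these fits are not given, so no conclusion is drawn from these member calls.

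Leaving out 1 library reversed the direction of 5 named members that no test called. The log2 fold change then ran from -0.29 to 0.041 for Cdh4, from -0.062 to 0.015 for Pcdhgc5, from -0.086 to 0.149 for Cdh24, from -0.12 to 0.197 for Pcdh19 and from -0.051 to 0.089 for Cdh2. The cluster sums had ranges of -0.20 to 0.43 for alpha, -0.41 to 1.14 for beta and -0.062 to 0.016 for gamma. Over all tested genes, same-numbered libraries of the lines did not deviate together (correlation of deviations -0.0192). This value cannot show a deviation shared by some genes only, which was not tested. With a replicate block Cdh3 (log2FC -0.22, edgeR adjusted p = 0.0138) and Cdh13 were still called, and no member call changed. Of 269 alternative values, 207 kept their direction and side of the threshold or stayed within the limit set for them. For the cluster sums this limit was wide, and all their alternatives counted as kept, also where the sign changed with a library left out. The gamma cluster without its highest row or its C-type rows, the alpha cluster without its highest row, and the beta cluster limited to tested genes left no counts to sum.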
